A study of Mus musculus with 76 samples.

Results

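Malat1, Neat1 and Pvt1 were grouped here as nuclear long non-coding RNAs, and they are 3 of the 49585 genes counted in this RNA-seq series of mouse fetal liver. Where they lie in the cell was not measured. They were taken by name, with no rule on their values but with earlier results of these data known, and were followed through all 76 libraries. All 3 passed the filter on low counts in each of the 12 comparisons of KO with WT. The series was made to look at RNAs under the control of DIS3 and EXOSC10 during red cell maturation. Its groups are DIS3 KO (labelled dis3 KO) and the WT samples of the DIS3 line, and EXOSC10 KO (labelled exs10 KO) and the WT samples of the EXOSC10 line. All animals were C57BL/6NJ embryos at embryonic day 14.5. Each genotype of each line was profiled as total fetal liver, with 4 libraries, and as the sorted fractions S0, S1, S2, S3 and S4+S5, with 3 libraries each, which are sorted on the surface markers CD71 and Ter119 and run here in order of maturation. The targeted allele, the promoter or Cre that made the deletion, and whether embryos were pooled are not given in the sources used here.

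DIS3 and EXOSC10 are the exoribonucleases of the nuclear RNA exosome, a machine for trimming and decay of RNA that works from the 3′ end. Malat1 is among the most abundant nuclear RNAs of mammalian cells and gathers in nuclear speckles, the stores of splicing factors. Neat1 is the scaffold on which paraspeckles are built, around the proteins Nono and Sfpq. The long forms of both RNAs lack a conventional poly(A) tail. RNase P cuts each transcript just upstream of a tRNA-like fold, and the 3′ end left behind is held in a triple helix between a genome-encoded A-rich tract and U-rich motifs, which slows decay from the 3′ end. Pvt1 lies downstream of the Myc gene, is spliced and polyadenylated, hosts several microRNAs and is a known transcriptional target of p53.

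In the GRCm38 genome with GENCODE M21 annotation, Malat1 (ENSMUSG00000092341) is a lincRNA on the minus strand of chromosome 19, from 5795690 to 5802672, with 6983 bases of exon. Neat1 (ENSMUSG00000092274) is a lincRNA on the same strand of chromosome 19, from 5824708 to 5845478, with 20771 bases of exon, and 22035 bases separate it from Malat1. Pvt1 (ENSMUSG00000097039) is a lincRNA on the plus strand of chromosome 15, from 62037986 to 62378096, whose exons cover 6996 bases, and it starts 47611 bases past the end of Myc. The stabilised 3′ ends are shown because the exosome works from that end. Both were read from the GENCODE M21 transcripts, on the minus strand of GRCm38. Each sequence is the 110 bases that end at the A-rich tract, and capitals mark the runs of at least 10 bases that the pair shares in the same order.
Malat1 3′ end, chr19:5795982-5796091: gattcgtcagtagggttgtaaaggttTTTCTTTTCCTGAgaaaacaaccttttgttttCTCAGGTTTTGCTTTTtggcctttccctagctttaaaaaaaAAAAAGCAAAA
Neat1 3′ end, chr19:5824708-5824817: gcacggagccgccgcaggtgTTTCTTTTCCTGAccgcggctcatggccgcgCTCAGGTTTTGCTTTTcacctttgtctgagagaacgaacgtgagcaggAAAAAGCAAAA
The shared runs have 13, 16 and 11 bases. They end 71, 36 and 0 bases before the end of the Malat1 tract, and 77, 43 and 0 bases before the end of Neat1. The first 2 hold the U-rich motifs of the triple helix and the last is the A-rich tract.

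The sequence just downstream of each tract is the part that RNase P releases as a small tRNA-like RNA. It is printed for the same reason, with capitals on the longest run that the pair shares, of 9 bases.
Malat1 after the tract, chr19:5795921-5795981: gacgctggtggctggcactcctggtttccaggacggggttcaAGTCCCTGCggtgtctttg
Gm27702, after Neat1, chr19:5824652-5824707: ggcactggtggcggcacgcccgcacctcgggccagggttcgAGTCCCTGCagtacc
The annotated Malat1 transcript runs on for 292 bases past its tract, which is 4.18% of its length, while annotated Neat1 stops at its tract. Gm27702 begins 1 base beyond Neat1 and held 31 counts in all, spread over 12 libraries, so that this small RNA was not measurable here. The core of the second U-rich motif, TTTTGCTTTT, stood in the last 110 bases of 7 of 9095 annotated lincRNA transcripts on the transcript's own strand (0.077%), and of 16 (0.176%) when both strands were searched. The full-length Neat1 transcript is among them. A match of letters is a description of the sequence and does not show that a triple helix forms.

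The files hold raw read counts per gene, and libraries held 4662194 to 30412636 counts. At that depth Malat1 had at least 12187 counts, Neat1 at least 168 and Pvt1 at least 23 in every sample used. In 24 of 84 pairs of same-group libraries the counts differed by hardly more than sampling noise (chi-square per degree of freedom 1.077 to 1.327, against 2.798 to 20.293 for the other pairs). Such sets were added up and treated as a single sample each, so that 52 samples remain. Every sorted group then has n = 2, DIS3 KO total liver has 2 samples and its WT 4, and EXOSC10 total liver has 3 of each genotype. No label says whether samples came from separate embryos, so p-values measure the spread between these samples, which may be technical. The rRNA-like genes Gm26917 and Gm42418 together took 5.264 to 61.418% of counts.

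The targeted genes were lower in their own line, though not absent. Dis3 was lower in DIS3 KO than in WT in S0, S1, S2 and S3 (log2 -0.95, -0.66, -0.73 and -0.31), and missed the threshold in total liver (log2 -0.25, adjusted p = 0.2454) and in S4+S5 (log2 -0.68, adjusted p = 0.1336). Exosc10 was lower in EXOSC10 KO in all 6 populations, by a log2 change of -1.90 in S0 at the most and -0.44 in S3 at the least. Counts of Y-linked genes differed between the genotypes of 1 line. They were at most 1.112 CPM (counts scaled to the library total in the usual way) in sorted DIS3 KO samples and 81.93 to 173.7 CPM in their WT samples, so that genotype and embryo sex cannot be told apart in the sorted DIS3 comparisons. In total liver of that line, 3 of 4 WT samples carried Y-linked counts. EXOSC10 samples of both genotypes were at or under 0.9283 CPM, but for 1 KO sample of S0 at 4.238.

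Levels are given in CPM, scaled once over all 52 samples, and fold changes come from a separate fit for each comparison, so that a ratio of printed levels can differ from the fitted fold by up to 1.2-fold (median 1.042). Malat1 was abundant everywhere. By mean level it ranked 3 to 6 among the genes tested in each sorted comparison, and 11 and 17 in total liver of the EXOSC10 and DIS3 lines. Per kilobase of exon, in group means, Malat1 stood 37.2 times (WT S0 of the EXOSC10 line) to 277.7 times (EXOSC10 KO S1) above Neat1. All counts of a gene were divided by its full exon length, 20771 bases for Neat1. Shorter forms of a transcript were not told apart, so that all ratios per kilobase depend on the length used. Neat1 per kilobase was below Pvt1 in S1 of both lines and both genotypes, with ratios of 0.155 (KO) and 0.6715 (WT) in EXOSC10 S1 and 0.2911 (KO) and 0.3794 (WT) in DIS3 S1. It was also below Pvt1 in S2 of DIS3 KO (0.759), DIS3 WT (0.8151) and EXOSC10 KO (0.4647), but not of EXOSC10 WT (1.241). In WT S4+S5 the order was reversed, and Neat1 stood 61.84 and 86.36 times above Pvt1 in the DIS3 and EXOSC10 lines.

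**Figure D1:**
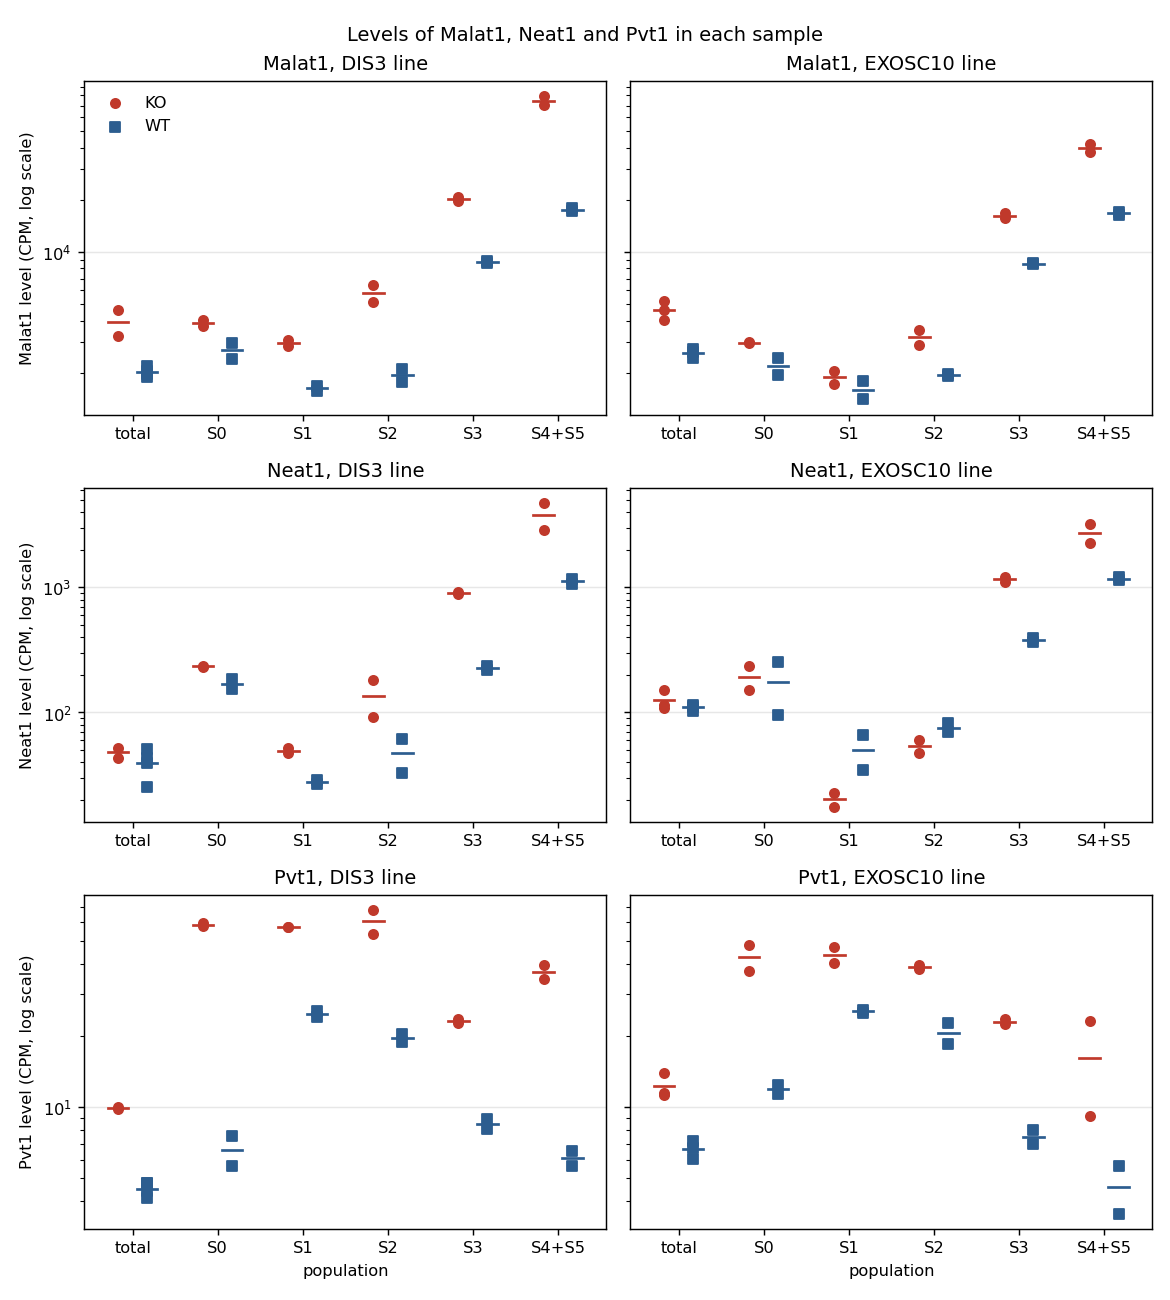
Levels of Malat1, Neat1 and Pvt1 in CPM (log axis) in each sample, for KO and WT of both lines, across total fetal liver and the sorted fractions in order of maturation; each point is 1 sample and short bars mark group means. Among the sorted fractions, Malat1 and Neat1 are lowest in S1 and highest in S4+S5 in both genotypes, and Pvt1 in WT is highest in S1.

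Through normal maturation, the WT samples showed Malat1 and Neat1 moving together and Pvt1 moving the other way. In WT of both lines the mean level of Malat1 and of Neat1 ordered as S1, S2, S0, S3 and S4+S5, low to high. Pvt1 was highest in S1 and lowest in S4+S5 in both.

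WT Malat1 in the DIS3 line was at 2408 and 2981 CPM in S0, 1575 and 1667 CPM in S1, 1776 and 2091 CPM in S2, 8551 and 8865 CPM in S3, and 17150 and 17900 CPM in S4+S5. WT of the EXOSC10 line had 1929 and 2422 CPM in S0, 1400 and 1786 CPM in S1, 1903 and 1976 CPM in S2, 8450 and 8572 CPM in S3, and 16350 and 16960 CPM in S4+S5. The step up falls between S2 and S3, with a further step to S4+S5, and in S4+S5 this single RNA took 1.039 to 1.242% of all counts in WT. S4+S5 exceeded S1 by log2 3.44 ± 0.16 (SE; DIS3 line) and 3.60 ± 0.16 (EXOSC10 line), with adjusted p = 3.99e-11 and 9.52e-13 by edgeR's quasi-likelihood test. Of the 10 pairs of fractions, 9 differed in the DIS3 line and 8 in the EXOSC10 line. The neighbours that did not differ beyond their spread were S1 and S2 in both lines (log2 0.25, adjusted p = 0.2671, and log2 0.28, adjusted p = 0.197), and S0 and S2 in the EXOSC10 line (log2 -0.12, adjusted p = 0.4824).

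WT Neat1 spanned more than Malat1. In the DIS3 line it had 153.1 and 185 CPM in S0, 26.72 and 28.74 CPM in S1, 33.11 and 61.56 CPM in S2, 216.8 and 236.4 CPM in S3, and 1069 and 1169 CPM in S4+S5. In the EXOSC10 line it had 94.87 and 253 CPM in S0, 34.55 and 66.45 CPM in S1, 69.27 and 81.76 CPM in S2, 363.1 and 394.9 CPM in S3, and 1136 and 1215 CPM in S4+S5. The highest mean was 40.35 times the lowest in the DIS3 line and 23.29 times in the EXOSC10 line, against 10.81 and 10.46 times for Malat1. S4+S5 exceeded S1 by log2 5.35 ± 0.23 (SE; adjusted p = 2.25e-11) and 4.80 ± 0.35 (adjusted p = 1.34e-09). Of 10 pairs, 9 differed in each line, the exceptions being S0 and S3 in the DIS3 line (log2 0.40, adjusted p = 0.07091) and S1 and S2 in the EXOSC10 line (log2 0.61, adjusted p = 0.2163).

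WT Pvt1 was a low transcript. In the DIS3 line it had 5.634 and 7.532 CPM in S0, 23.9 and 25.33 CPM in S1, 18.83 and 20.29 CPM in S2, 8.065 and 8.864 CPM in S3, and 5.66 and 6.533 CPM in S4+S5. In the EXOSC10 line it had 11.3 and 12.43 CPM in S0, 24.99 and 25.67 CPM in S1, 18.38 and 22.61 CPM in S2, 6.985 and 7.989 CPM in S3, and 3.552 and 5.615 CPM in S4+S5. The S1 samples lay above all others in both lines. S4+S5 minus S1 was log2 -2.02 ± 0.19 (SE; adjusted p = 1.77e-07) and -2.24 ± 0.18 (adjusted p = 5.53e-09). In the DIS3 line 6 of 10 pairs differed, and S0, S3 and S4+S5 could not be separated from one another, nor S1 from S2. In the EXOSC10 line 9 of 10 differed, all but S1 and S2. Over all 5 WT fractions 88.7% and 86.4% of genes tested in the DIS3 and EXOSC10 lines differed, so that a change with maturation was the rule among genes. By pair of fractions, the share ran between 19.4% (S1 and S2) and 76.8% (S0 and S3) in the DIS3 line and between 17.8 and 74.3% for the same pairs in the EXOSC10 line, and it was 67.6 and 69.6% for S1 and S4+S5.

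Setting KO against WT, Malat1, Neat1 and Pvt1 were mostly higher in KO. Of 36 tests, 3 genes in 6 populations of 2 lines, 29 found the gene higher in KO, 2 found it lower and 5 did not pass an adjusted p of 0.05. Pvt1 rose in 12 of 12 comparisons, Malat1 in 10 of 12, and Neat1 rose in 7, fell in 2 and did not pass in 3. For DIS3 KO the 3 genes gave 17 rises in 18 tests, and for EXOSC10 KO 12 rises and 2 falls in 18.

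These counts stand beside a large number of changed genes. For DIS3 KO, all 3 genes rose in S0, where 31% of genes tested were called and 18% were higher, in S1, where 40.1% were called and 20.6% higher, and in S2, where 15.1% were called and 10.3% higher. All 3 also rose in DIS3 KO S3, with 32.1% of genes called and 16.3% higher, and in S4+S5, with 47.1% called and 23.4% higher, while 2 of 3 rose in total liver, with 50.7% called and 26.5% higher. For EXOSC10 KO, 1 of 3 rose in S0, where 13.5% of genes were called and 8.84% were higher. In EXOSC10 KO S1, 1 rose and 1 fell, where 30.7% were called, 15.2% higher and 15.5% lower, and in S2, 2 rose and 1 fell, where 21.4% were called, 11.6% higher and 9.86% lower. All 3 rose in EXOSC10 KO S3, with 34.1% called and 16.8% higher, and in S4+S5, with 15.2% called and 7.63% higher, and 2 of 3 in total liver, with 62.4% called and 31.4% higher. Genes called lower made up 24.2, 13, 19.4, 4.8, 15.9 and 23.7% of those tested in total liver, S0, S1, S2, S3 and S4+S5 of DIS3 KO, and 31, 4.63, 17.2 and 7.52% in total liver, S0, S3 and S4+S5 of EXOSC10 KO. The median log2 change of all genes tested lay between -0.02 and 0.03 in every comparison.

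**Figure D2:**
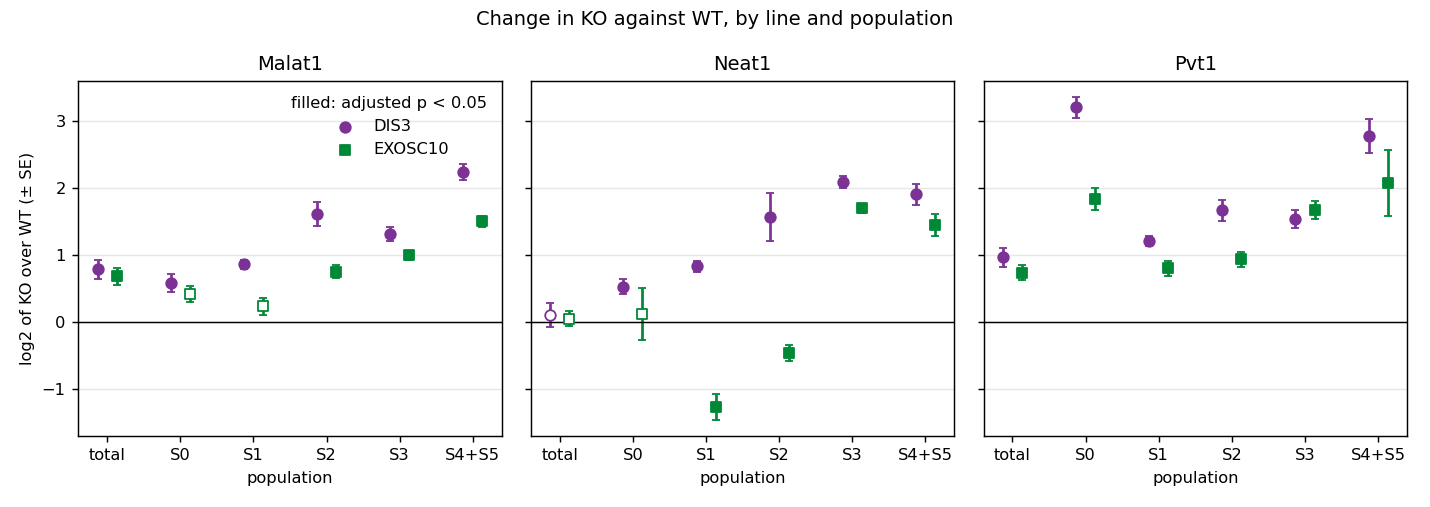
Log2 fold change of KO against WT for Malat1, Neat1 and Pvt1 in total fetal liver and the 5 sorted fractions, for the DIS3 and EXOSC10 lines; points are edgeR estimates, bars are standard errors, and filled points have an adjusted p under 0.05. Most points lie above 0, and Neat1 in EXOSC10 S1 and S2 lies below it.

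Malat1 rose in all 6 populations of DIS3 KO, and most in S4+S5. There it had 70110 and 79260 CPM in DIS3 KO against 17150 and 17900 CPM in WT, a log2 change of 2.24 ± 0.12 (SE, n = 2 each; adjusted p = 2.38e-11, edgeR), and it took 4.952 and 5.365% of all counts in KO against 1.039 and 1.242% in WT. In S3 the levels were 19660 and 20830 CPM in KO and 8551 and 8865 CPM in WT (log2 1.31 ± 0.10, adjusted p = 1.21e-06). In S2 they were 5117 and 6395 CPM in KO and 1776 and 2091 CPM in WT (log2 1.61 ± 0.18, adjusted p = 0.00081). The earlier fractions moved less, by log2 0.86 ± 0.06 in S1 (2855 and 3108 CPM in KO, 1575 and 1667 CPM in WT, adjusted p = 9.96e-07) and 0.58 ± 0.13 in S0 (3709 and 4048 CPM in KO, 2408 and 2981 CPM in WT, adjusted p = 0.006705). In total liver KO had 3249 and 4585 CPM, and the 4 WT samples ranged from 1885 to 2191 CPM (log2 0.79 ± 0.14, adjusted p = 0.000245). KO and WT samples did not overlap in any population of the DIS3 line.

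For EXOSC10 KO, Malat1 rose in the later fractions and in total liver. In S4+S5 it had 37940 and 41910 CPM in KO and 16350 and 16960 CPM in WT (log2 1.497 ± 0.08, adjusted p = 0.000752), in S3 15620 and 16660 CPM in KO and 8450 and 8572 CPM in WT (log2 0.99 ± 0.07, adjusted p = 4.52e-07), and in S2 2882 and 3548 CPM in KO and 1903 and 1976 CPM in WT (log2 0.75 ± 0.10, adjusted p = 0.001425). Total liver had 4014, 4591 and 5199 CPM in KO and 2442, 2628 and 2741 CPM in WT (log2 0.68 ± 0.13, adjusted p = 0.000483). In S0 the samples did not overlap, with 2957 and 3002 CPM in KO and 1929 and 2422 CPM in WT, but the change of log2 0.42 ± 0.12 lay at the threshold (adjusted p = 0.05074) and passed it in several other fits. S1 samples overlapped, with 1713 and 2052 CPM in KO and 1400 and 1786 CPM in WT (log2 0.23 ± 0.12, adjusted p = 0.1639). Without WT sample 1 of S1 the change was 0.42 and passed.

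The line difference was tested itself, as the DIS3 effect minus the EXOSC10 effect. For Malat1 it was 0.76 ± 0.12 in S4+S5 (adjusted p = 0.004601), where 7.01% of genes differed between lines, and 0.65 ± 0.15 in S1 (adjusted p = 0.01864), where 4.02% did. The S1 call was lost without DIS3 WT sample 1+3 (0.58, adjusted p = 0.1196), DIS3 KO sample 2 (0.56, adjusted p = 0.1135) or EXOSC10 KO sample 1 (0.53, adjusted p = 0.09617). The difference missed the threshold in S2 (0.87 ± 0.21, adjusted p = 0.05895), S3 (0.32 ± 0.09, adjusted p = 0.1132), S0 (0.15 ± 0.18, adjusted p = 0.7288) and total liver (0.12 ± 0.19, adjusted p = 0.8491). In S3 and total liver 1.41% and 1.02% of genes differed between lines. The KO effect on Malat1 also differed between fractions in both lines (adjusted p = 2.72e-05 for DIS3 and 0.002134 for EXOSC10), where 34.5% and 30% of genes did so. Against its S0 effect, the S4+S5 effect was larger by log2 1.45 ± 0.21 in the DIS3 line and 0.81 ± 0.19 in the EXOSC10 line (adjusted p = 6.69e-06 and 0.003472). DIS3 S2 (0.91, adjusted p = 0.005468) and S3 (0.64, adjusted p = 0.04051) were also larger than S0. Among all genes, the S1, S2, S3 and S4+S5 effects differed from the S0 effect for 6.78, 7.46, 11.5 and 29.7% in the DIS3 line and for 11.9, 7.09, 10.5 and 24.5% in the EXOSC10 line.

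Neat1 rose most in S3 and S4+S5 of both lines. In S3 it had 880.1 and 919.5 CPM in DIS3 KO and 216.8 and 236.4 CPM in WT (log2 2.08 ± 0.09, adjusted p = 3.6e-09), and 1114 and 1220 CPM in EXOSC10 KO and 363.1 and 394.9 CPM in WT (log2 1.69 ± 0.07, adjusted p = 3.73e-09). In S4+S5 it had 2889 and 4704 CPM in DIS3 KO and 1069 and 1169 CPM in WT (log2 1.90 ± 0.16, adjusted p = 1.26e-08), and 2276 and 3185 CPM in EXOSC10 KO and 1136 and 1215 CPM in WT (log2 1.45 ± 0.16, adjusted p = 0.004996). The difference between the lines did not pass in either fraction (0.40 ± 0.11, adjusted p = 0.09007, in S3 and 0.47 ± 0.26, adjusted p = 0.3074, in S4+S5).

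The lines diverged for Neat1 in S1 and S2. In S1 DIS3 KO had 47.53 and 51.59 CPM and its WT 26.72 and 28.74 CPM, a rise of log2 0.83 ± 0.08 (adjusted p = 9.08e-06). EXOSC10 KO had 17.7 and 22.63 CPM in S1 and its WT 34.55 and 66.45 CPM, a fall, with log2 -1.26 ± 0.19 (adjusted p = 2.93e-05). In S2 DIS3 KO had 92.31 and 180.9 CPM and its WT 33.11 and 61.56 CPM (log2 1.57 ± 0.36, adjusted p = 0.0217), while EXOSC10 KO had 47.42 and 59.9 CPM and its WT 69.27 and 81.76 CPM (log2 -0.46 ± 0.13, adjusted p = 0.0332). The difference between lines was 2.1 ± 0.29 in S1 (adjusted p = 0.000242) and 2.05 ± 0.45 in S2 (adjusted p = 0.04433), and 2.22% of genes differed between lines in S2. The groups did not overlap in either fraction of either line.

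Single samples weigh on these values. Without WT sample 1 of EXOSC10 S1, the one at 66.45 CPM, the S1 change was -0.76 (adjusted p = 1.07e-05), and without the other WT sample it was -1.70. The DIS3 S2 change was 1.01 without the KO sample at 180.9 CPM and 2.08 without the WT sample at 61.56 CPM, and DESeq2 did not call it (adjusted p = 0.0955). The EXOSC10 S2 fall lost its call when all samples of the line entered 1 fit (adjusted p = 0.3861). The line difference in S2 kept its sign but lost its call in 5 of 8 fits with a sample left out, with DIS3 WT sample 1+3 (1.64, adjusted p = 0.1879) or any of the 4 EXOSC10 samples gone (1.88 to 2.23, adjusted p = 0.08926 to 0.1566).

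Markers of red cells and other cells differed between the genotypes in these fractions. Summed erythroid progenitor markers were lower in KO in every population of both lines. In S2 they were at 55.99 to 66.29 CPM in DIS3 KO and 137.5 to 152.7 CPM in WT. For EXOSC10 S2 they were at 66.79 to 77.03 CPM in KO and 169 to 169.6 CPM in WT. In S1, 5 of 9 erythroblast markers rose and 1 fell in each line, beside 20.6 and 15.2% of all genes higher. DIS3 KO S2 had 3 of 10 higher and 0 lower, beside 10.3%. EXOSC10 KO S2 had 5 of 9 higher and 1 lower, beside 11.6%. The summed level of 10 granulocyte markers, all of which fell, was 6.639 to 24.24 CPM in EXOSC10 KO S1 and 274.6 to 612.9 CPM in WT, and the higher WT value belongs to the WT sample with more Neat1. In DIS3 S1, where Neat1 rose, the same 10 markers also all fell, with a sum of 4.864 to 34.21 CPM in KO and 255.1 to 814.5 CPM in WT. Summed macrophage markers were 3.48 to 4.426 CPM in EXOSC10 KO S1, with 7 of 12 markers at 0 including Adgre1, C1qa and C1qc, and 13.49 to 19.47 CPM in WT. In EXOSC10 S2, macrophage markers summed to 5.905 to 7.755 CPM in KO and 44.93 to 46.89 CPM in WT, with 10 of 11 tested lower. Granulocyte markers summed there to 43.46 to 170.2 CPM in KO and 194.5 to 198.8 CPM in WT, with 1 of 10 called lower and 9 not called. Hepatocyte markers rose in that fraction, 8 of 10 tested, with sums of 112.9 to 116.3 CPM in KO and 11.89 to 14.05 CPM in WT. Mast cell and basophil markers fell there, 5 of 5 tested. In DIS3 S2, where Neat1 rose, macrophage markers summed to 1.206 to 3.709 CPM in KO and 17.96 to 24.04 CPM in WT. Of these 9 of 11 tested were lower, as were 6 of 10 granulocyte markers and 1 of 5 mast cell and basophil markers. Macrophage markers in DIS3 S1 summed to 1.81 to 2.17 CPM in KO and 6.091 to 12.91 CPM in WT. Summed markers of the B lineage were also lower in KO in every population of both lines. The part of these cells and of red cell maturation in the Neat1 values was not tested. In bulk samples, fewer cells of a type and less RNA per cell cannot be told apart.

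In S0 Neat1 had 232.4 and 236.5 CPM in DIS3 KO and 153.1 and 185 CPM in WT (log2 0.53 ± 0.11, adjusted p = 0.004773), a call that was lost when the whole line entered 1 fit (adjusted p = 0.169). In EXOSC10 S0 the KO samples, at 151.1 and 233.8 CPM, lay between the WT samples, at 94.87 and 253 CPM (log2 0.12 ± 0.38, adjusted p = 0.8726). The change was 0.98 without WT sample 1, which carried 832.9 CPM of granulocyte markers, and -0.45 without the other, which carried 649.8 CPM. The EXOSC10 KO samples carried more of these markers, 1042 to 1946 CPM. In DIS3 S0, where Neat1 rose, they summed to 368.6 to 510.3 CPM in KO and 2368 to 2779 CPM in WT. The part of granulocytes in the S0 values of Neat1 was not tested. Total liver showed no change past the threshold in either line. DIS3 KO had 43.62 and 52.28 CPM and the 4 WT samples 25.5 to 50.72 CPM (log2 0.11 ± 0.18, adjusted p = 0.6381). EXOSC10 KO had 109, 115.7 and 150.6 CPM and WT 102.8, 111.2 and 115.7 CPM (log2 0.05 ± 0.11, adjusted p = 0.7195). The 2 lines' WT total livers themselves did not overlap, at 25.5 to 50.72 CPM in the DIS3 line and 102.8 to 115.7 CPM in the EXOSC10 line, a difference that was not tested.

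The KO effect on Neat1 differed between fractions in both lines (adjusted p = 0.003448 for DIS3 and 0.000592 for EXOSC10). Relative to S0, the S3 effect was larger by log2 1.47 ± 0.33 in the DIS3 line and 1.49 ± 0.46 in the EXOSC10 line (adjusted p = 0.003233 and 0.04253). The S4+S5 effect exceeded that of S0 by 1.18 ± 0.33 in the DIS3 line (adjusted p = 0.007858), and by 1.06 ± 0.45 in the EXOSC10 line, which missed the threshold (adjusted p = 0.09703). The mean level of Neat1 spanned 135.4-fold between S4+S5 and S1 in EXOSC10 KO and 23.29-fold in its WT, and 76.59-fold in DIS3 KO and 40.35-fold in its WT. Malat1 spanned 25.04-fold in DIS3 KO and 10.81-fold in WT, and 21.21-fold in EXOSC10 KO and 10.46-fold in WT.

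**Figure D3:**
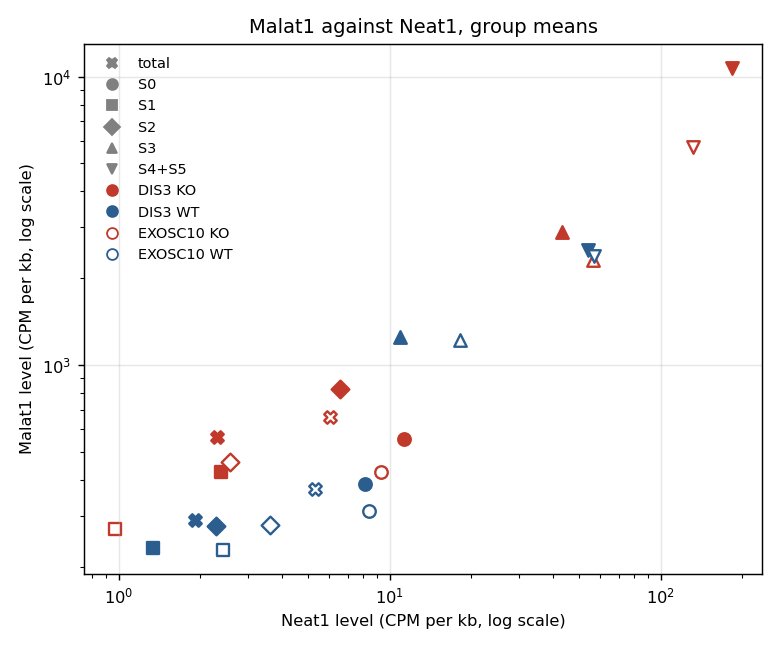
Mean Malat1 level against mean Neat1 level in CPM per kilobase of exon (both axes log) for the 24 groups of line, genotype and population; colour marks the genotype, filled or open points the line, and the shape the population. Points run from S1 at the lower left to S4+S5 at the upper right in KO and WT, and EXOSC10 KO S1 lies farthest left.

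Marker sums also differed in S3, S4+S5 and total liver, where Malat1 rose in both lines. Erythroid progenitor markers summed in S4+S5 to 47.87 to 80.36 CPM in DIS3 KO and 283.8 to 286 CPM in WT. For the EXOSC10 line these sums were 110 to 115.2 CPM in KO and 235 to 280 CPM in WT. Macrophage markers summed in S3 to 4.623 to 5.62 CPM in DIS3 KO and 23.76 to 25.08 CPM in WT, with 8 of 9 tested markers lower, and to 6.847 to 10.16 CPM in EXOSC10 KO and 31.96 to 35.77 CPM in WT, with 9 of 10 lower. They summed in S4+S5 to 30.46 to 56.49 CPM in DIS3 KO and 420.3 to 574 CPM in WT, with 11 of 11 tested markers lower, and to 48.42 to 85.61 CPM in EXOSC10 KO and 422.7 to 435 CPM in WT, with 10 of 11 lower. The stellate and mesenchymal list was higher in KO in both fractions, but a single one of its 8 genes, Reln, an extracellular matrix glycoprotein, made up 97.92 to 99.41% of the sum in each group. Reln was at 534 to 610.1 CPM in DIS3 KO S3 and 83.95 to 104.4 CPM in WT, and at 646.4 to 648.5 CPM in EXOSC10 KO S3 and 112.7 to 120.4 CPM in WT. In S4+S5 it was at 840 to 964.5 CPM in DIS3 KO and 314.4 to 335 CPM in WT, and at 1168 to 1226 CPM in EXOSC10 KO and 429.2 to 450.1 CPM in WT. The other 7 genes, collagens among them, summed to at most 10.41 CPM in any sample of S3 and S4+S5. Erythroblast markers in S4+S5 summed to 58140 to 62240 CPM in DIS3 KO and 77300 to 85760 CPM in WT, and to 40470 to 45240 CPM in EXOSC10 KO and 74320 to 75050 CPM in WT. Of the 10 erythroblast markers 3 rose and 3 fell in DIS3 KO S4+S5, and none rose and 4 fell in EXOSC10 KO S4+S5. In total liver, all 11 hepatocyte markers rose in both lines and all 10 erythroblast markers fell. Hepatocyte markers summed there to 104700 to 110000 CPM in DIS3 KO and 42500 to 49230 CPM in WT, and to 48460 to 66800 CPM in EXOSC10 KO and 25560 to 32270 CPM in WT. The part of composition or maturation in the values of Malat1, Neat1 and Pvt1 was not tested.

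Pvt1 was higher in KO in every population of both lines, and the largest change in the DIS3 line was in S0. In S0 it had 57.74 and 59.39 CPM in DIS3 KO and 5.634 and 7.532 CPM in WT, a log2 change of 3.20 ± 0.15 (adjusted p = 1.64e-07), and 37.58 and 48.18 CPM in EXOSC10 KO and 11.3 and 12.43 CPM in WT (log2 1.83 ± 0.17, adjusted p = 0.000382). The KO samples of S0 lay above the samples of every WT fraction. In S1, where WT was highest, DIS3 KO had 57.14 and 57.54 CPM and WT 23.9 and 25.33 CPM (log2 1.21 ± 0.07, adjusted p = 2.4e-07), and EXOSC10 KO had 40.57 and 47.07 CPM and WT 24.99 and 25.67 CPM (log2 0.80 ± 0.11, adjusted p = 5.31e-06). In S2 the values were 53.82 and 67.45 CPM in DIS3 KO and 18.83 and 20.29 CPM in WT (log2 1.66 ± 0.16, adjusted p = 0.000379), and 38.13 and 39.66 CPM in EXOSC10 KO and 18.38 and 22.61 CPM in WT (log2 0.93 ± 0.11, adjusted p = 0.00102).

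S3 of both lines gave almost the same Pvt1 levels, with 22.63 and 23.58 CPM in DIS3 KO and 8.065 and 8.864 CPM in WT (log2 1.54 ± 0.13, adjusted p = 3.59e-06), and 22.35 and 23.41 CPM in EXOSC10 KO and 6.985 and 7.989 CPM in WT (log2 1.67 ± 0.13, adjusted p = 9.43e-07). In S4+S5 DIS3 KO had 34.61 and 39.66 CPM and WT 5.66 and 6.533 CPM (log2 2.77 ± 0.26, adjusted p = 5.02e-08). EXOSC10 KO S4+S5 had 9.156 and 23.07 CPM, from 52 and 412 counts, and WT had 3.552 and 5.615 CPM, from 46 and 82 counts (log2 2.08 ± 0.49, adjusted p = 0.04339). The spread between that pair of KO samples was wide, and the change was 1.23 without the higher and 2.51 without the lower. Total liver had 9.844 and 10.03 CPM in DIS3 KO and 4.135 to 4.777 CPM in the 4 WT samples (log2 0.96 ± 0.14, adjusted p = 3.89e-05), and 11.29, 11.51 and 13.85 CPM in EXOSC10 KO and 6.04, 6.685 and 7.171 CPM in WT (log2 0.73 ± 0.11, adjusted p = 9.6e-05). KO and WT samples of Pvt1 did not overlap in any of the 12 comparisons.

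The lines differed in the Pvt1 effect in S0 by 1.36 ± 0.24 (adjusted p = 0.004109), where 7.25% of genes differed. Marker sums in S0 also differed between KO and WT. Granulocyte markers summed to 368.6 to 510.3 CPM in DIS3 KO S0 and 2368 to 2779 CPM in WT, with 10 of 10 lower, but to 1042 to 1946 CPM in EXOSC10 KO S0 and 649.8 to 832.9 CPM in WT, with 5 higher and 1 lower of 10. Hepatocyte markers summed to 28.76 to 36.65 CPM in DIS3 KO S0 and 15.52 to 15.55 CPM in WT, with 3 of 7 tested higher, and to 59.77 to 904.5 CPM in EXOSC10 KO S0 and 23.11 to 32.24 CPM in WT, with 7 of 9 higher. Of 10 B lineage markers, 10 fell in DIS3 KO S0 and 9 in EXOSC10 KO S0. The part of these cells in the Pvt1 values was not tested. The line difference in Pvt1 did not pass the threshold in S1 (0.44 ± 0.13, adjusted p = 0.06795), S2 (0.73 ± 0.20, adjusted p = 0.1054), S3 (-0.12 ± 0.19, adjusted p = 0.8212), S4+S5 (0.70 ± 0.53, adjusted p = 0.4863) or total liver (0.23 ± 0.17, adjusted p = 0.5981). Between fractions the DIS3 KO effect on Pvt1 differed (adjusted p = 1.07e-07), with S1, S2 and S3 below S0 by log2 differences of -2.06 ± 0.20, -1.65 ± 0.20 and -1.74 ± 0.22 (adjusted p = 5.57e-07, 6.57e-06 and 3.11e-06). S4+S5 was not separated from S0 (-0.62 ± 0.25, adjusted p = 0.06075). For EXOSC10 the fractions also differed (adjusted p = 0.03908), with S1 below S0 (-1.06 ± 0.34, adjusted p = 0.04885), but the test over fractions lost its call in 15 of the 20 fits that left out 1 EXOSC10 sample, with an adjusted p of up to 0.1059.

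The span of Pvt1 over the sorted fractions was smaller in KO than in WT, a difference that was not tested. The highest mean was 2.625 times the lowest in DIS3 KO and 4.036 times in WT, and 2.72 times in EXOSC10 KO and 5.527 times in WT. Without the EXOSC10 KO sample of S4+S5 at 23.07 CPM the ratio in EXOSC10 KO was 4.786, a value added after seeing the data. S0 could not be separated from S1 in KO (log2 S1 minus S0 of -0.03 ± 0.14, adjusted p = 0.8698, in DIS3 KO and 0.03 ± 0.27, adjusted p = 0.9499, in EXOSC10 KO), while in WT S1 stood above S0 by log2 1.92 ± 0.16 and 1.15 ± 0.16 (adjusted p = 6.06e-08 and 1.06e-05). Among all genes, S1 and S0 differed for 52.8 and 48.7% in KO and for 56.1 and 52.5% in WT of the DIS3 and EXOSC10 lines.

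Pvt1 was compared with its neighbour Myc and with p53 targets. Myc, a transcription factor of proliferating cells, did not follow Pvt1. In S0 Myc fell, with 59.9 and 82.63 CPM in DIS3 KO and 139.3 and 155.3 CPM in WT (log2 -0.99 ± 0.12, adjusted p = 0.000162), and 58.13 and 76.21 CPM in EXOSC10 KO and 133.8 and 172.4 CPM in WT (log2 -1.23 ± 0.16, adjusted p = 0.002466). Myc also fell in DIS3 KO S1 (log2 -0.22, adjusted p = 0.02648) and S4+S5 (log2 -1.47 ± 0.25, adjusted p = 7.53e-05) and in EXOSC10 KO total liver (log2 -0.33, adjusted p = 0.004104), and it rose in EXOSC10 KO S3 (log2 0.67 ± 0.10, adjusted p = 0.00029). Myc did not pass in the other 6 comparisons. Of 14 listed genes around Myc and Pvt1 on chromosome 15, 7 or 8 were tested in each comparison. None of them was called higher in DIS3 KO S0, S1, S2 or S3 or in EXOSC10 KO S0, S1, S2 or S4+S5, where 7.63 to 20.6% of all genes were. At most 3 were lower there, beside 4.63 to 19.4% of all genes. With 7 or 8 genes tested, 0 called higher is not far from these shares. In DIS3 and EXOSC10 KO total liver 3 of 8 rose, and 2 and 4 fell. Of all genes 26.5 and 31.4% rose there, and 24.2 and 31% fell. DIS3 KO S4+S5 had 2 of 8 higher and 4 lower, beside 23.4 and 23.7%. EXOSC10 KO S3 had 1 of 8 higher and 2 lower, beside 16.8 and 17.2%. The median of those tested lay between -0.92 and -0.08 over the 12 comparisons. Fam49b, a regulator of actin remodelling, fell by 1.96 on the log2 scale in DIS3 KO S4+S5.

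Most of the listed p53 targets rose in each of the 12 comparisons. The transcription factor p53 is held down by Mdm2 and, on DNA damage or ribosomal stress, drives genes of cell cycle arrest and apoptosis. Cdkn1a, the p21 inhibitor of cyclin-dependent kinases, had 131.9 and 200.3 CPM in S0 of DIS3 KO against 9.121 and 9.195 CPM in WT. In EXOSC10 KO S0 it had 148.8 and 181.5 CPM, against 6.851 and 8.711 CPM in WT. Its log2 change was 4.24 ± 0.17 and 4.41 ± 0.17 there (adjusted p = 6.17e-08 and 9.78e-06) and reached 7.01 in DIS3 KO S2 and 6.23 in EXOSC10 KO S1. Of 30 listed p53 targets, which do not include Pvt1, DIS3 KO raised 21 of 30 tested in total liver, 25 of 30 in S0, 26 of 30 in S1, 24 of 29 in S2, 19 of 26 in S3 and 25 of 29 in S4+S5. EXOSC10 KO raised 23 of 30 in total liver, 25 of 30 in S0, 25 of 28 in S1, 24 of 28 in S2, 21 of 27 in S3 and 20 of 30 in S4+S5. In the same order, 26.5, 18, 20.6, 10.3, 16.3 and 23.4% of all genes were higher in DIS3 KO. For EXOSC10 KO these shares were 31.4, 8.84, 15.2, 11.6, 16.8 and 7.63%. At most 4 targets fell in any comparison. The median log2 change of the targets was lowest in total liver (0.69 in DIS3 and 0.81 in EXOSC10) and highest in DIS3 S4+S5 (2.85). Eda2r, a death receptor of the TNF receptor family, had the largest rise in S0 of both lines (log2 7.27 in DIS3 and 6.05 in EXOSC10). Trp53cor1, the p53-induced lincRNA-p21, rose by log2 3.64 ± 0.26 in DIS3 KO S0 and 3.55 ± 0.28 in EXOSC10 KO S0. Pvt1 moved in the same direction as most of these targets, and its part in them, or theirs in it, was not tested.

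**Figure D4:**
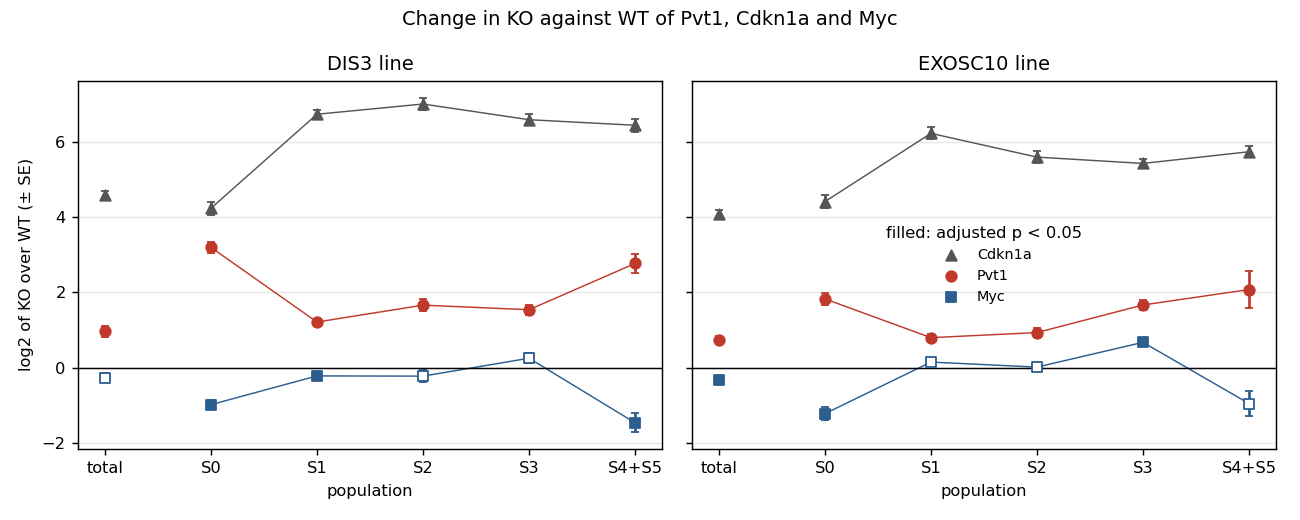
Log2 fold change of KO against WT in each population for Pvt1, its neighbour Myc and the p53 target Cdkn1a, for the DIS3 and EXOSC10 lines; points are edgeR estimates, bars are standard errors, lines join the sorted fractions, and filled points have an adjusted p under 0.05. Cdkn1a lies above Pvt1 and Pvt1 above 0 in all 12 comparisons, while Myc lies below 0 in S0 and S4+S5 of both lines.

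Long non-coding RNAs as a class are the background for the 3 genes. In DIS3 KO they rose widely, with 681 of 1289 tested higher and 26 lower in S0 (median log2 1.66), where 18% of all genes were higher. In S1 500 of 924 were higher and 49 lower, in S2 363 of 882 and 6, in S3 256 of 739 and 40, and in S4+S5 410 of 690 and 43. Of all genes 20.6, 10.3, 16.3 and 23.4% were higher there. In DIS3 KO total liver 443 of 1065 were higher and 95 lower, beside 26.5% of all genes higher. EXOSC10 KO total liver had 320 of 877 higher and 117 lower, beside 31.4% of all genes higher and 31% lower. Its median log2 change was 0.31 for the class and 0.000655 for all genes. The changes of Malat1, Neat1 and Pvt1 in DIS3 KO sat inside the shift of the class. In DIS3 KO S0, 71.14% of long non-coding RNAs tested had a larger log2 change than Malat1, 72.07% than Neat1 and 20.25% than Pvt1. In S4+S5 the shares were 39.42%, 44.2% and 29.42%, and Neat1 in S3 had the smallest share of the line, 13.13%. In the sorted fractions of EXOSC10 KO fewer of the class were called, with 60 of 865 higher and 11 lower in S0 (median log2 0.25), where 8.84% of all genes were higher. In S1 46 were higher and 61 lower of 645, in S2 44 and 20 of 576, in S3 87 and 54 of 606, and in S4+S5 47 and 22 of 679. Of all genes 15.2, 11.6, 16.8 and 7.63% were higher there, so that the class was not called higher more often than all genes. Calls do not show the whole shift. The median log2 change of the class was -0.13 in S1, -0.01 in S2, 0.11 in S3 and 0.26 in S4+S5. That of all genes lay between -0.02 and 0.01 in the sorted fractions of EXOSC10 KO. Of all genes 4.63, 15.5, 9.86, 17.2 and 7.52% were lower in S0, S1, S2, S3 and S4+S5. In EXOSC10 KO, Pvt1 in S0 was exceeded by 6.358% of the class, Pvt1 in S3 by 3.135%, Neat1 in S3 by 2.97%, and Malat1 in S3 and S4+S5 by 11.39% and 14.87%. Neat1 in EXOSC10 KO S1 was exceeded by 93.64%.

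Other nuclear long RNAs, a list of 22 that holds Trp53cor1 also, gave 10 rises and 0 falls among 20 tested in DIS3 KO S0, beside 18% of all genes higher. It gave 6 rises and 4 falls among 18 in S1, 3 and 0 among 17 in S2, 7 and 3 among 16 in S3, and 5 and 0 among 18 in S4+S5. Of all genes 20.6, 10.3, 16.3 and 23.4% were higher there. In EXOSC10 KO the list gave 2 rises and 5 falls among 21 in S0, beside 8.84% of all genes higher and 4.63% lower, with Gas5, the host of small nucleolar RNAs, at log2 -0.87. S1 of EXOSC10 KO gave 3 rises and 6 falls among 17, S2 2 and 2 among 18, S3 5 and 4 among 18, and S4+S5 4 and 1 among 17. Of all genes 15.2, 11.6, 16.8 and 7.63% were higher in these fractions and 15.5, 9.86, 17.2 and 7.52% lower. Total liver gave 11 rises and 2 falls among 20 in each line, beside 26.5% (DIS3) and 31.4% (EXOSC10) of all genes higher.

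Genes of the bodies that Malat1 and Neat1 occupy changed in both directions. Of 24 paraspeckle protein genes tested, at most 6 rose in any comparison and 13 fell in EXOSC10 KO total liver, where 31% of all genes fell. In DIS3 KO S4+S5 6 rose and 6 fell, close to the shares of all genes (23.4% higher and 23.7% lower). The splicing regulator Rbmx was at log2 1.06 ± 0.22 there and Nono, a core paraspeckle protein, at log2 -1.19. None rose and 1 fell in EXOSC10 KO S4+S5, where 7.63% of all genes were higher and 7.52% lower. Among 25 nuclear speckle genes, 11 rose and 4 fell in DIS3 KO S4+S5, led by Pnisr (log2 1.46) and with the splicing factor Srsf7 at log2 -0.92, and 5 rose and 1 fell in EXOSC10 KO S4+S5. In total liver 10 speckle genes fell and none rose in DIS3 KO, and 14 fell and 3 rose in EXOSC10 KO. Of all genes in total liver, 24.2% fell and 26.5% rose in DIS3 KO, and 31% fell and 31.4% rose in EXOSC10 KO. The medians of both lists lay between -0.22 and 0.23 over the 12 comparisons.

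Genes that act on the 3′ ends changed in both directions. Of 17 tested genes for RNase P and other factors of 3′ end processing, 6 rose and 1 fell in EXOSC10 KO S2. Of all genes 11.6% rose and 9.86% fell there. In S3, 5 of 17 rose and 3 fell in DIS3 KO and 5 rose and 2 fell in EXOSC10 KO. Of all genes 16.3 and 16.8% rose there, and 15.9 and 17.2% fell. In EXOSC10 KO total liver none rose and 9 of 17 fell, beside 31% of all genes that fell. In the other 8 comparisons at most 4 rose and at most 3 fell. Of all genes 7.63 to 26.5% were higher there and 4.63 to 24.2% lower. Rpp25, a protein subunit of RNase P, rose in EXOSC10 KO S4+S5 (adjusted p = 0.01271), where each WT sample held 1 count, so that no fold is given. Rpph1, the RNA subunit of RNase P, had the largest fall in total liver, S0, S1 and S3 of DIS3 KO (log2 -1.02, -0.55, -0.56 and -0.43) and in S0, S1 and S2 of EXOSC10 KO (log2 -1.02, -0.77 and -0.88). Pop1, another protein subunit, rose in S1, S2 and S3 of both lines, by log2 0.29, 0.49 and 0.69 in DIS3 KO and 0.54, 0.49 and 0.83 in EXOSC10 KO. Of 15 tested genes for adaptors that bring RNAs to the exosome, at most 2 rose in any comparison, beside 7.63 to 31.4% of all genes. In EXOSC10 KO total liver 8 of 15 fell, beside 31% of all genes, and elsewhere at most 4, beside 4.63 to 24.2% of all genes. Zfc3h1, a zinc finger protein of the adaptor for polyadenylated RNA, rose in all 5 sorted fractions of DIS3 KO (log2 0.40 to 1.19) and in 4 populations of EXOSC10 KO, the largest rise there being 0.70 in S4+S5.

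The neighbours of Malat1 and Neat1 on chromosome 19 mostly fell in total liver. Of 18 listed neighbours 12 to 14 were tested, and 11 of 14 fell and 1 rose in DIS3 KO total liver, where 24.2% of all genes fell. In EXOSC10 KO total liver 10 of 14 fell and 2 rose, where 31% of all genes fell. In the sorted fractions 7 of 12 fell and 1 rose in EXOSC10 KO S3, where 17.2% of all genes fell. In EXOSC10 KO S2 and DIS3 KO S1, 6 of 13 fell and 0 rose, beside 9.86 and 19.4% of all genes lower. EXOSC10 KO S1 had 5 of 13 lower and 0 higher, beside 15.5% lower. In the other sorted comparisons at most 4 fell and at most 3 rose. Of all genes 4.63 to 23.7% were lower there and 7.63 to 23.4% higher. The median log2 change over all 12 comparisons lay between -0.53 and 0.21. Frmd8, the protein-coding gene next to Neat1 on the same strand, 4224 bases away, rose in S3 and S4+S5 of DIS3 KO (log2 0.60 ± 0.10 and 0.78 ± 0.16) and of EXOSC10 KO (log2 0.31 ± 0.11 and 1.20 ± 0.13), the fractions where Neat1 rose most, and fell in total liver of both lines (log2 -0.49 and -0.28). Counts on small genes inside or beside the 3 loci were few. Gm37376, on the strand opposite Malat1, held 90 counts over all libraries, and Frmd8os, opposite and 145 bases from Neat1, held 211. Inside Pvt1, Gm27782 held 830 counts and rose in S0 and S2 of DIS3 KO (log2 2.43 ± 0.51 and 1.75 ± 0.49, adjusted p = 0.004443 and 0.04629).

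Across the 24 group means of line, genotype and population, the genes most like each of the 3 were ranked by Pearson's r of log2 CPM among 10233 genes. These values are descriptions, since the groups share libraries' scaling and stages of maturation. Malat1 was nearest to Dyrk1b (r = 0.966), Chd2 (0.958), Ubr3 (0.957), Stx5a (0.953) and Tmem86b (0.953). Neat1 was nearest to Trappc9 (0.949), Akap13 (0.944), Chd2 (0.943), Tbk1 (0.936) and Clk1 (0.935). Pvt1 was nearest to Gtf3c1 (0.927), the p53-induced nuclease gene Aen (0.921), Gm17491 (0.906), Plpbp (0.896) and Aaas (0.892). Malat1 and Neat1 had r = 0.933 over the 24 groups and 0.935 over the 12 WT groups. Pvt1 had r = -0.096 with Malat1 and -0.174 with Neat1 over all groups, and -0.63 and -0.638 over WT groups. Of the 5 genes nearest in all groups, 0 for Malat1, 1 for Neat1 and 0 for Pvt1 were also among the 5 nearest in WT groups alone.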

How the data were processed

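Counts per Ensembl gene were deposited by the authors as raw, unnormalized counts, 1 table for each of 76 libraries. Per the labels' protocols, total RNA was depleted of rRNA and made into stranded libraries. Per the submitters' processing notes the build was GRCm38 and the tools were HISAT2 2.1.0, Subread, featureCounts 1.6.4, R 3.5.1 and DESeq2 1.20.0; the annotation release and strand setting are not given in the sources used here. Gene symbols came from GENCODE M21, which held 49326 of 49585 identifiers.

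Libraries of 1 group with a chi-square per degree of freedom under 1.5, over genes with at least 20 counts, were summed. Gm26917 and Gm42418 were left out of that check, a choice made after seeing the data. KO and WT were compared per line and population with edgeR 4.0.16 (R 4.3.3), using TMM scaling, filterByExpr and the quasi-likelihood F test with Benjamini-Hochberg adjustment over all genes tested. All adjusted p-values in the text are from edgeR unless DESeq2 is named. Differences between lines and between fractions were interaction terms. SE is the log2 change divided by the square root of F. The scripts were tested on simulated data.

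Within a sorted fraction, same-numbered KO and WT replicates showed no steady pairing: with 2 samples a group, the correlation of their deviations ran from -0.279 to 0.241. Pairing across fractions was not checked. Summed libraries bore the same numbers in every sorted group of a line (1+3 in DIS3, 2+3 in EXOSC10). In every sorted EXOSC10 group Gm26917 and Gm42418 took most in replicate 1, in WT S0 49.918% against 33.836 and 33.398%. The tests across fractions took no account of such links. Alternatives were RLE scaling, no filter, every library as its own sample, Gm26917 and Gm42418 left out, each sample left out, a replicate block, 1 fit per line, and DESeq2 1.42.0.

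Members and lists were chosen with earlier results of these data known. Named from a list are its largest called rise and fall in a comparison, and beside them Dis3, Exosc10, Myc, Cdkn1a, neighbours within 5 kb and the 5 genes most alike. Trp53cor1 in S0, Reln, and Rbmx, Pop1, Rpph1 and Zfc3h1 beyond the comparisons that they led, were added after their values were seen.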

Additional observations from a re-analysis of the deposited data

Results flagged for a closer look

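The KO effect of the lines differed by a test of the difference itself in 5 of 18 tests, each with the DIS3 effect the higher (DIS3 minus EXOSC10, log2, edgeR). For Pvt1 in S0 the difference was 1.36 (adjusted p = 0.004109), where 7.25% of all genes differed. For Malat1 it was 0.76 in S4+S5 (adjusted p = 0.004601), where 7.01% did, and 0.65 in S1 (adjusted p = 0.01864), where 4.02% did, a call lost in 3 of 8 fits with a sample left out. For Neat1 it was 2.1 in S1 (adjusted p = 0.000242) and 2.05 in S2 (adjusted p = 0.04433), where 2.22% differed and the call was lost in 5 of 8 such fits. In S1 and S2 Neat1 rose in DIS3 KO and fell in EXOSC10 KO.

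The KO effect differed between sorted fractions for all 3 genes in both lines with all samples in the fit, as it did for 34.5% of all genes in the DIS3 line and 30% in the EXOSC10 line. In the DIS3 line the adjusted p was 2.72e-05 for Malat1, 0.003448 for Neat1 and 1.07e-07 for Pvt1. In the EXOSC10 line it was 0.002134 for Malat1, 0.000592 for Neat1 and 0.03908 for Pvt1, and the last was lost in 15 of 20 fits that left out 1 sample. In the sorted DIS3 samples, KO and WT also differ in Y-linked counts, and genotype and embryo sex cannot be told apart there.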

How the results depend on the processing

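The tests of Malat1, Neat1 and Pvt1 were refitted 867 times over 66 results. RLE scaling, no filter, every library its own sample, the removal of Gm26917 and Gm42418 and leaving out each sample were run on all of them. The replicate block, 1 fit per line and DESeq2 were run on KO against WT only, and the Pvt1 tests of S1 against S0 within KO were not refitted. Of these, 795 kept their side of the threshold and, where the test has one, their direction. A further 26 lost the call, 28 gained one and 18 changed sign. The F tests over all WT fractions, which have no direction, kept their call in all 84 refits. The 36 comparisons of KO with WT kept direction and side of the threshold in 391 of 411, and none of the 31 called changes turned its sign. The cause of the changes below was not tested. Values are log2 changes of KO against WT, or DIS3 minus EXOSC10 effects.

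Neat1 in DIS3 total liver was -0.24 with only the WT sample that matches KO in Y-linked counts, where 4992 genes were called instead of 8899. Neat1 lost its call in 1 fit per line in DIS3 S0 (0.48) and EXOSC10 S2 (-0.48), and with DESeq2 in DIS3 S2 (1.56). Malat1 in EXOSC10 S0 gained a call with no filter (0.41), every library its own sample (0.47), without Gm26917 and Gm42418 (0.43), with the replicate block (0.43), in 1 fit per line (0.44) and with DESeq2 (0.42); Malat1 in EXOSC10 S1 did so with every library its own sample (0.33). With every library its own sample, the line difference of Neat1 in total liver was -0.039, and those of Pvt1 in S1 (0.41) and S2 (0.73), Malat1 in S2 (0.82) and S3 (0.31) and Neat1 in S3 (0.38) passed. With no filter, Pvt1 in S2 (0.71), Malat1 in S2 (0.85) and S3 (0.31), Neat1 in S3 (0.38) and in S4+S5 (0.57) passed, and without Gm26917 and Gm42418 Malat1 in S2 (0.87) did. WT Pvt1 in the DIS3 line, S4+S5 minus S0, was 0.015 with RLE scaling.

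With each sample left out in turn, the KO change of Neat1 ran over -0.060 to 0.26 in DIS3 total liver, -0.11 to 0.15 in EXOSC10 total liver and -0.45 to 0.98 in EXOSC10 S0. Malat1 ran over 0.25 to 0.59 in EXOSC10 S0 and 0.067 to 0.42 in S1. The line difference of Malat1 ran over -0.13 to 0.34 in total liver, -0.040 to 0.31 in S0, 0.46 to 0.80 in S1, 0.69 to 1.03 in S2 and 0.27 to 0.37 in S3. For Neat1 it ran over -0.093 to 0.24 in total liver, -0.49 to 0.95 in S0, 1.495 to 2.55 in S2 and 0.16 to 0.78 in S4+S5, and for Pvt1 over 0.35 to 0.53 in S1, 0.57 to 0.92 in S2 and 0.27 to 1.55 in S4+S5. The adjusted p of Pvt1 across EXOSC10 fractions ran over 0.0001258 to 0.1059, and its S4+S5 minus S0 effect over -0.94 to 0.46. WT Pvt1 in the DIS3 line ran over -0.32 to 0.12 for S4+S5 minus S0, and WT Malat1 in the EXOSC10 line over -0.29 to 0.042 for S2 minus S0.

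The replicate block changed 1 call, that of Malat1 in EXOSC10 S0 (0.43, adjusted p = 0.03467, edgeR). Where correlations were under -0.1, the crossed pairing, added after seeing the data, called 5404 genes in DIS3 S0 against 5155 with no block, 6131 against 5697 in DIS3 S1, 3974 against 2122 in EXOSC10 S0 and 4623 against 4204 in EXOSC10 S1. Counts of called genes moved by over 1.5 times most in DIS3 S2 (2118, range 872 to 5898), EXOSC10 S0 (2122, range 793 to 5636) and EXOSC10 S4+S5 (2144, range 1277 to 7872). Most groups hold 2 samples, and Pvt1 in EXOSC10 S4+S5 rests on 46 to 412 counts a sample.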
